A study of Homo sapiens with 12 samples.

Results

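The YEATS2 hairpin was compared directly with the ZZZ3 hairpin in cells that expressed YAP-TFE3 (YT), to ask which transcripts tell the 2 knock-downs apart. The comparison rests on 4 of the 12 sequenced libraries, chosen by their titles: 2 of YAP-TFE3 shYEATS2 and 2 of YAP-TFE3 shZZZ3 (rep1 and rep2 of each), with no control library standing between them. All 4 came from SW872, an established human liposarcoma line, which had been given the YT fusion in a retroviral vector and then a lentiviral short hairpin, each under drug selection. The other libraries served as reference, again in 2 libraries per group. They were YT cells with a non-targeting hairpin (shNT), and SW872 cells that expressed the fusion TAZ-CAMTA1 (TC) with shNT, shYEATS2 or shZZZ3. The lines were pools of transduced cells rather than clones, SW872 keeps its own YAP and TAZ genes, and a hairpin lowers a transcript without removing the gene. The study calls the duplicates of its SW872 RNA-seq biological and describes separate transductions for its sequencing in general, but the labels do not say whether rep1 and rep2 of a hairpin were transduced separately. The p-values given below rest on the spread within groups over all 12 libraries, those of TC cells included, and part of that spread may be technical.

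YEATS2 and ZZZ3 are subunits of ATAC (Ada2a-containing), a histone acetyltransferase complex built around the enzyme KAT2A or KAT2B. YEATS2 reads acylated lysines on histone H3 through its YEATS domain, and ZZZ3 binds the histone H3 tail through its ZZ-type zinc finger. ATAC shares its catalytic module with SAGA, a larger coactivator complex. YT and TC are fusion proteins of epithelioid hemangioendothelioma, a vascular sarcoma, and both reach DNA largely through the TEAD transcription factors that YAP and TAZ bind.

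The hairpin targets are shown because the comparison is between these hairpins. The study designed 5 hairpins for each gene, and the labels of the sequenced libraries do not say which was used, so the target of the first hairpin of each set is given as an example. The sequences are the 21-base sense targets, 5′ to 3′, with the 7 bases that pair with positions 2 to 8 of the guide strand in capitals.
YEATS2 hairpin 1: cgtcagagttcaaGTTCATTt
ZZZ3 hairpin 1: tcaaagaacttggTCATAAAt
The YEATS2 target lies on the plus strand of GRCh38 at chr3:183736763-183736783, in coding sequence of exon 8 of the canonical transcript. The ZZZ3 target lies on the minus strand at chr1:77565309-77565329, in the 3′ UTR within exon 15. Each of these targets matched transcripts of its own gene only.

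The 4 libraries held between 19843181 and 29294805 counts in genes, and the 12 libraries between 17451893 and 29294805. The shZZZ3 pair was uneven. Over genes that averaged 50 counts or more, the root mean square log2 difference was 0.538 between the shZZZ3 libraries and 0.237 between the shYEATS2 libraries, against 0.594 to 0.703 between a shYEATS2 and a shZZZ3 library. As deposited, shZZZ3 replicate 1 was nearer to TC shZZZ3 replicate 1 (0.463) and shZZZ3 replicate 2 to TC shNT replicate 2 (0.442) than either was to the other. The unevenness followed base composition. The median log2 difference of shZZZ3 replicate 1 minus replicate 2 ran from −0.78 in genes of at most 35% GC to 0.64 in genes above 65% GC. After the median trend with GC content was taken off, the shZZZ3 pair differed by 0.370 and each of its libraries was nearest to the other. Both were still nearer to the TC libraries than to the other YT libraries. Replicate 1 differed by 0.457 to 0.552 from the 6 TC libraries and by 0.578 to 0.648 from the other 4 YT libraries. For replicate 2 these ranges were 0.440 to 0.573 and 0.610 to 0.652. The reason was not tested. CAMTA1, whose sequence is part of the TC fusion, lay between 60.1 and 154 CPM (counts scaled by the TMM-adjusted size of the library) in the 6 TC libraries. It was at 30.4 and 23.2 CPM in the shZZZ3 libraries of YT cells and between 23.6 and 27.1 in the other 4 YT libraries. A second set of values with the GC trend removed is therefore given where it changed the call of a gene described or moved a list's count of calls by over 1.5 times.

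**Figure D1:**
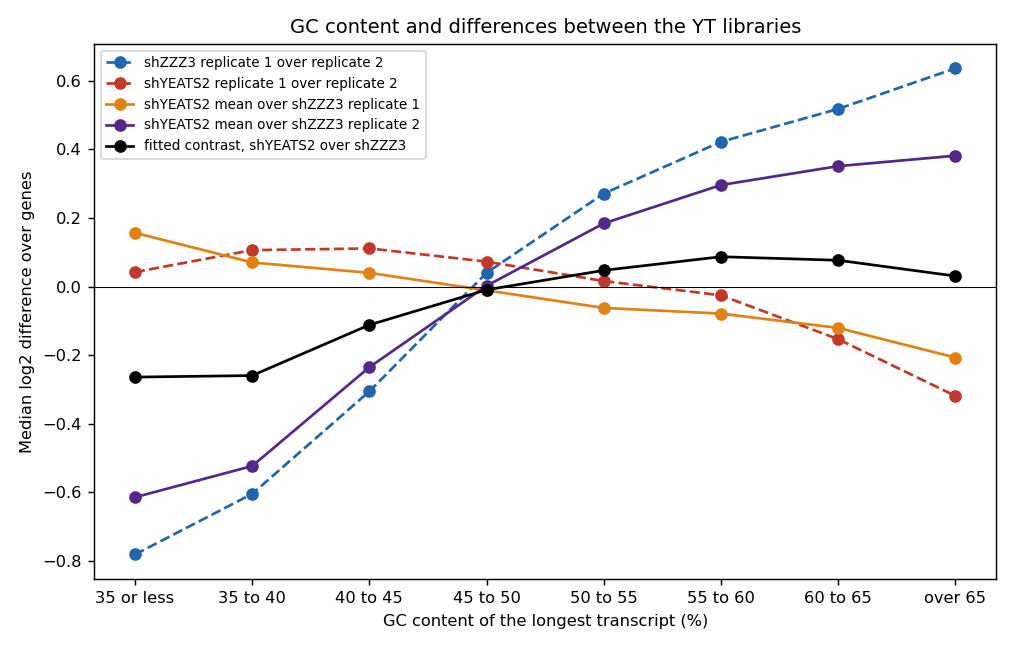
Median log2 difference over the genes tested (vertical) in classes of the GC content of the gene's longest transcript in percent (horizontal). Dashed lines compare the libraries of a pair, orange and purple lines the mean of the shYEATS2 libraries with a single shZZZ3 library, and the black line is the fitted contrast. From genes of at most 35% GC to those above 65%, the shZZZ3 pair runs from −0.78 to 0.64, shYEATS2 over shZZZ3 replicate 2 from −0.61 to 0.38, and shYEATS2 over shZZZ3 replicate 1 from 0.16 to −0.21.

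Markers of a mesenchymal line were present in the 6 YT libraries, and of the markers of other cells those of endothelium were present as well. VIM (vimentin, an intermediate filament) lay between 696 and 2152 CPM and THY1 (a mesenchymal surface antigen) between 15.2 and 52.4 CPM. EPCAM (epithelial) lay between 0.58 and 1.91 CPM, CD3E (T cells) between 0.11 and 0.62 and CD14 (monocytes) between 0.74 and 4.13, and PTPRC (leukocytes) had too few counts to be tested. The endothelial genes PECAM1 and CDH5 lay between 2.06 and 22.2 CPM and between 10.8 and 87.1 CPM, and they are described with their list. In bulk RNA, fewer cells of one state and less RNA per cell cannot be told apart.

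YEATS2 told the pairs apart and ZZZ3 did not. YEATS2 (chr3:183697797-183812624) was at 33.9 and 38.5 CPM with shYEATS2, 138 and 134 CPM with shZZZ3 and 115 and 117 CPM with shNT. It was 3.75-fold lower with its own hairpin (log2 fold change −1.91, SE 0.18, adjusted p = 1.59e-04), by edgeR's quasi-likelihood test with Benjamini-Hochberg adjustment over all genes tested, the test used throughout. ZZZ3 (chr1:77562416-77683419) was at 12.6 and 29.6 CPM with shZZZ3, 31.4 and 30.7 CPM with shYEATS2 and 71.2 and 49.1 CPM with shNT. All 4 knock-down libraries thus lay below both shNT libraries, and shZZZ3 replicate 2 lay within 2 CPM of the shYEATS2 libraries. The difference between the hairpins was 0.56 on the log2 scale (SE 0.42, edgeR adjusted p = 0.504). It was 0.03 without shZZZ3 replicate 1 and 1.31 without replicate 2, neither passing the test, and with the GC trend removed it was 0.90 (edgeR adjusted p = 0.0139). ZZZ3 transcripts have a GC content of 37.6%, in the class from 35% to 40% where the median difference of shZZZ3 replicate 1 minus replicate 2 was −0.60. Against shNT the fitted log2 fold change of ZZZ3 was −1.51 with shZZZ3 (edgeR adjusted p = 0.0453) and −0.95 with shYEATS2 (0.130), both measured from the same shNT libraries.

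Of 13 ATAC subunits tested, YEATS2 alone was called as fitted, against 7.21% of all genes tested. After removal of the GC trend 1 was lower and 2 were higher, ZZZ3 among them. No gene of the 17 SAGA subunits outside ATAC and none of the 11 fusion parents, TEAD factors and VGLL cofactors passed with edgeR. At an unadjusted p under 0.05 these lists held 2 and 5 genes, and DESeq2 called 0 and 1. They held 0 and 2 calls, the latter 1 in each direction, once the GC trend was removed. YAP1 was at 184 and 168 CPM with shYEATS2 and 162 and 231 with shZZZ3 (log2 −0.16, SE 0.25, edgeR adjusted p = 0.779). TFE3 was at 208 and 209 CPM against 207 and 144 (0.25, SE 0.23, edgeR adjusted p = 0.595). Each of these counts pools the cell's own transcript with that of the fusion, and the level of the fusion protein was not measured here.

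In all, 1327 of 18415 genes tested (7.21%) were called at an edgeR adjusted p under 0.05. With shYEATS2, 629 were higher (3.42%) and 698 lower (3.79%) than with shZZZ3. The lower genes differed by more: their median absolute log2 fold change was 1.87, and 305 of them differed at least 4-fold. The median of the higher genes was 1.36, and 133 of them differed at least 4-fold. In the called genes the pairs of libraries never overlapped. Over all genes tested they did not overlap in 4313 genes higher with shYEATS2 (23.4%) and 4515 lower (24.5%). The median log2 fold change of all genes was −0.03.

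How many genes passed depended on single libraries. As the pairs never overlapped in the called genes, leaving out a library could not reverse the order of the pairs. The other alternatives refitted the same counts, so a kept direction is no separate evidence. All 1327 genes kept their direction in each of the 16 alternatives in which they were tested, and 300 of them (153 higher, 147 lower) were called whichever of the 4 libraries was left out. The count was 363 without shYEATS2 replicate 1, 405 without shYEATS2 replicate 2, 1178 without shZZZ3 replicate 1 and 774 without shZZZ3 replicate 2. With the GC trend removed it was 2962 (16.1%), of which 1302 were among the 1327. Of the 121 genes called that the naming rule selected, 52 were called in all 4 of these omissions, 13 in 3, 12 in 2, 28 in 1 and 16 in none.

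**Figure D2:**
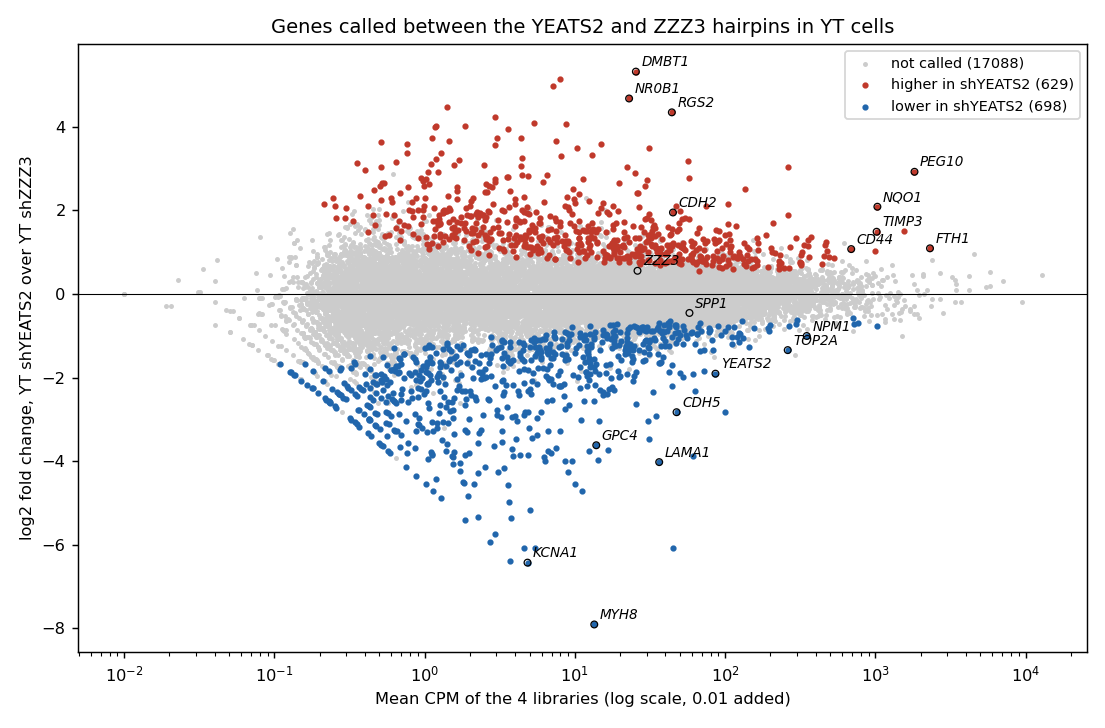
Log2 fold change of shYEATS2 over shZZZ3 in YT cells (vertical) against the mean CPM of the 4 libraries on a log scale (horizontal), with each gene tested as a point, red where called higher (629) and blue where called lower (698). The blue points reach further from 0 than the red ones (12 higher and 37 lower genes differ at least 16-fold), and PEG10, NQO1, TIMP3, FTH1 and CD44 stand out among abundant genes.

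The transcripts lowest with shYEATS2 relative to shZZZ3 had diverse roles. The 10 coding genes with the lowest log2 fold changes, among those that reached 5 CPM in the higher pair, were MYH8, KCNA1, SMOC2, MYH2, FNDC1, OLFM4, DGKK, PRND, TUBA3C and TRIML2. Several were at or near 0 counts with shYEATS2, where a fitted fold change depends on the prior count, so a count ratio or a bound is given for them.

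MYH8 encodes the perinatal myosin heavy chain of skeletal muscle. It was at 0.0416 and 0 CPM with shYEATS2 (1 count in all), 23.1 and 30.6 CPM with shZZZ3 and 124 and 118 CPM with shNT. The shZZZ3 to shYEATS2 ratio was 1153 (95% interval of counting error 207 to 45566). The fitted log2 fold change was −7.91 (SE 0.87, edgeR adjusted p = 4.06e-04), the lowest of the 10, and both knock-down pairs lay below the shNT libraries. MYH2, the fast type IIa chain, was at 0 and 0.103 CPM with shYEATS2, 9.24 and 9.01 with shZZZ3 and 42.4 and 40.4 with shNT, a ratio of 198 (54.6 to 1642) with an edgeR adjusted p of 2.13e-04.

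Both belong to the cluster of skeletal myosin genes on chromosome 17. Of its members, MYH13 (chr17:10300865-10373130), MYH8 (chr17:10390322-10421950), MYH4, MYH1 and MYH2 (chr17:10521148-10549700) were called lower, and MYH3, at the far end, was not. MYH4, MYH1 and MYH3 are named here after their values were seen. MYH13, MYH4 and MYH1 had 0 counts in both shYEATS2 libraries. MYH13 was at 2.18 and 2.28 CPM with shZZZ3 and 32.7 and 30.5 with shNT, so it was at least 16.1-fold lower with shYEATS2 than with shZZZ3 (against 3 counts per library). MYH3 was at 0.749 and 1.65 CPM with shYEATS2 and 0.655 and 2.24 with shZZZ3, and its pairs overlapped. These genes resemble each other in sequence and an antisense gene overlaps several of them, so counts of single members are uncertain. The non-muscle chains MYH9, MYH10 and MYH14 were not called, and MYH9 was at 765 and 792 CPM with shYEATS2 and 908 and 668 with shZZZ3.

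KCNA1, which encodes the delayed-rectifier potassium channel Kv1.1, was at 0 and 0.0516 CPM with shYEATS2 and 7.31 and 11.9 with shZZZ3. The ratio was 410.0 (73.2 to 16228), and the edgeR adjusted p was 1.00e-04. SMOC2, a secreted calcium-binding matrix protein, had 0 counts with shYEATS2 and 8.04 and 6.77 CPM with shZZZ3, at least 53.9-fold lower (edgeR adjusted p = 4.78e-04). OLFM4, a secreted olfactomedin-domain glycoprotein, also had 0 counts with shYEATS2 and stood at 4.73 and 6.09 CPM with shZZZ3, at least 38.8-fold lower (edgeR adjusted p = 2.07e-04). All of these were below 0.5 CPM with shNT, so they were near absent in the control cells and present with shZZZ3. FNDC1, a fibronectin type III domain protein, was at 0 and 0.155 CPM with shYEATS2, 9.10 and 12.3 with shZZZ3 and 3.27 and 4.08 with shNT, a ratio of 153 (52.1 to 745).

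DGKK, a diacylglycerol kinase, was at 0.0416 and 0 CPM with shYEATS2 and 6.33 and 5.41 with shZZZ3, a ratio of 256 (45.7 to 10159). PRND, which encodes the prion-like protein doppel, was at 0.125 and 0.0516 CPM against 7.21 and 7.57 (log2 −5.37, SE 0.44, edgeR adjusted p = 1.00e-04). TUBA3C, an alpha tubulin with near-identical copies whose counts are therefore uncertain, was at 0.166 and 0.206 CPM against 11.4 and 8.12 (−5.17, SE 0.69, edgeR adjusted p = 0.00125). These 3 were called whichever library was left out, as were the 6 before them. TRIML2, of the tripartite motif family, was at 0.166 and 0.103 CPM with shYEATS2, 7.28 and 6.94 with shZZZ3 and 43.9 and 37.3 with shNT. Its log2 fold change of −4.99 had an SE of 1.29 and an edgeR adjusted p of 0.0388. None of the 4 omissions kept the call, with log2 fold changes from −5.23 to −4.84. The fit shares its spread with the TC libraries, and the TC shYEATS2 libraries stood at 75.4 and 2.71 CPM. Fitted in the 6 YT libraries alone, TRIML2 had a log2 fold change of −4.97 (edgeR adjusted p = 1.00e-05).

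**Figure D3:**
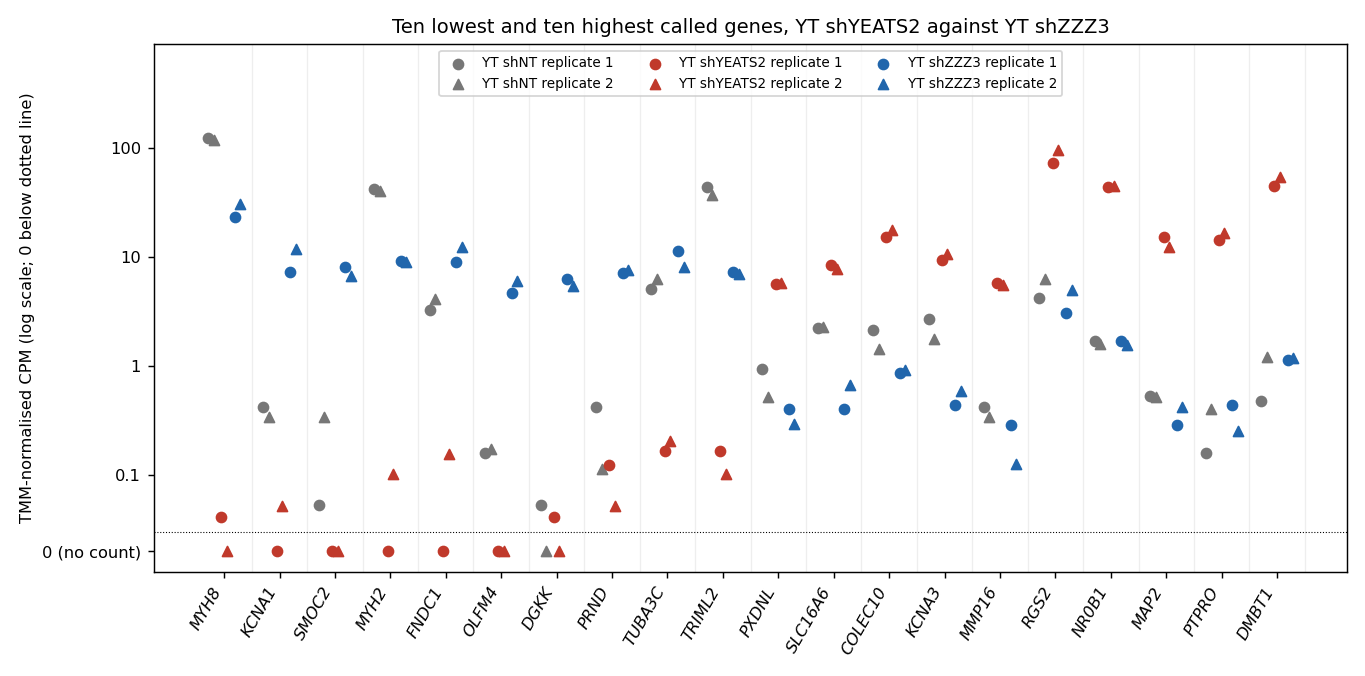
TMM-normalised CPM (log scale, with libraries at 0 counts placed below the dotted line) of the 10 lowest and 10 highest called coding genes in each YT library. Circles are replicate 1 and triangles replicate 2, in grey for shNT, red for shYEATS2 and blue for shZZZ3. The red and blue points do not overlap for any gene, and the grey points stand above both pairs for MYH8, MYH2 and TRIML2 and near the lower pair for KCNA1, SMOC2, OLFM4, DGKK and most of the higher genes.

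The 10 coding genes highest with shYEATS2 relative to shZZZ3, by the same rule, were likewise diverse. DMBT1, a secreted scavenger receptor protein of epithelia, was at 44.9 and 54.5 CPM with shYEATS2, 1.13 and 1.18 with shZZZ3 and 0.475 and 1.21 with shNT. It was 40-fold higher with shYEATS2 (log2 5.32, SE 0.50, edgeR adjusted p = 1.64e-04). NR0B1 (DAX-1, an orphan nuclear receptor that acts as a repressor) was at 43.5 and 44.9 CPM with shYEATS2, 1.71 and 1.56 with shZZZ3 and 1.69 and 1.61 with shNT, 25.6-fold higher (4.68, SE 0.32, edgeR adjusted p = 5.27e-05). RGS2, which switches off Gq signalling, was at 73.2 and 95.2 CPM against 3.09 and 5.03, with shNT at 4.17 and 6.33, a 20.4-fold difference (4.35, SE 0.40, edgeR adjusted p = 1.59e-04). For these 3 genes the shZZZ3 libraries stood close to shNT and the shYEATS2 libraries apart from both.

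PTPRO, a receptor tyrosine phosphatase, was at 14.2 and 16.8 CPM with shYEATS2 and 0.437 and 0.254 with shZZZ3 (log2 5.15, SE 0.84, edgeR adjusted p = 0.00371). MAP2, a microtubule-associated protein of neurons, was at 15.2 and 12.5 CPM against 0.291 and 0.423 (4.98, SE 0.35, edgeR adjusted p = 5.27e-05). MMP16, a membrane-bound matrix metalloproteinase, was at 5.74 and 5.52 CPM against 0.291 and 0.127 (4.24, SE 0.42, edgeR adjusted p = 2.07e-04). In each case both shNT libraries were also under 1 CPM, so these transcripts were near absent except with shYEATS2.

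KCNA3, the potassium channel Kv1.3, was at 9.49 and 10.7 CPM with shYEATS2, 0.437 and 0.592 with shZZZ3 and 2.69 and 1.78 with shNT (log2 4.09, SE 0.58, edgeR adjusted p = 0.00175). COLEC10, a secreted collectin, was at 15.4 and 17.6 CPM against 0.873 and 0.93, with shNT at 2.16 and 1.44 (4.07, SE 0.61, edgeR adjusted p = 0.00234). SLC16A6, a member of the monocarboxylate transporter family, was at 8.49 and 7.85 CPM against 0.4 and 0.677, with shNT at 2.22 and 2.30 (3.73, SE 0.51, edgeR adjusted p = 0.00143). In these 3 genes the libraries of the hairpins stood on opposite sides of the control, though shZZZ3 was called against shNT by edgeR's test for SLC16A6 alone. PXDNL, a peroxidasin-like protein, was at 5.62 and 5.83 CPM against 0.4 and 0.296 (3.73, SE 0.38, edgeR adjusted p = 2.95e-04). All 10 of the highest genes were called whichever library was left out.

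Among abundant transcripts the differences were smaller. PEG10 (chr7:94656325-94669695), an imprinted gene derived from a retrotransposon, was at 3231 and 3198 CPM with shYEATS2, 365 and 481 with shZZZ3 and 678 and 511 with shNT. It was 7.59-fold higher with shYEATS2 (log2 2.92, SE 0.27, edgeR adjusted p = 1.59e-04). NQO1, a quinone reductase of the oxidative stress response, was at 1778 and 1558 CPM against 472 and 312, with shNT at 1285 and 1228 (2.09, SE 0.27, edgeR adjusted p = 0.00113). TIMP3, a matrix-bound inhibitor of metalloproteinases, was at 1581 and 1423 CPM against 597 and 472, with shNT at 1101 and 1214 (1.49, SE 0.18, edgeR adjusted p = 7.07e-04). These 3 were called whichever library was left out, and in each the control lay between the hairpins.

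IGFBP4, which binds insulin-like growth factors, was at 2314 and 2242 CPM with shYEATS2 and 1039 and 573 with shZZZ3 (log2 1.5, SE 0.31, edgeR adjusted p = 0.0138). FTH1, the ferritin heavy chain, whose processed pseudogenes make its count uncertain, was at 3218 and 3064 CPM against 1866 and 1079.9 (1.09, SE 0.29, edgeR adjusted p = 0.0468). For both, the shZZZ3 libraries differed from each other by more than the shYEATS2 libraries did, and only the fit without shZZZ3 replicate 1 kept the call.

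The 5 most abundant lower genes of at least 2-fold were less abundant than these. NGFR, the p75 neurotrophin receptor, was at 72.8 and 79.5 CPM with shYEATS2, 202 and 139 with shZZZ3 and 25.5 and 25 with shNT (log2 −1.16, SE 0.22, edgeR adjusted p = 0.0089). TOP2A, the DNA topoisomerase of dividing cells, was at 169 and 126 CPM against 318 and 430.4 (−1.34, SE 0.35, edgeR adjusted p = 0.0404). NPM1, the nucleolar chaperone nucleophosmin, which also has pseudogene copies, was at 235 and 229 CPM against 397 and 535 (−1.01, SE 0.22, edgeR adjusted p = 0.0188). FBLN1, the matrix protein fibulin-1, was at 83.8 and 88.4 CPM against 216 and 140.4 (−1.05, SE 0.24, edgeR adjusted p = 0.024). MAP3K1, a kinase upstream of JNK, was at 94 and 74.7 CPM against 172 and 237 (−1.28, SE 0.25, edgeR adjusted p = 0.00917). The pairs did not overlap for any of the 5, and none kept its call in more than 2 of the 4 omissions. NGFR lost it without either shYEATS2 library (edgeR adjusted p = 0.102 and 0.0692).

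The shNT libraries, which did not enter the contrast between the hairpins, place each difference relative to unperturbed YT cells. Of the 629 genes higher with shYEATS2, both shNT libraries lay between the pairs in 207 (32.9%), below both pairs in 163 (25.9%) and above both in 41 (6.52%), and overlapped a pair in 218 (34.7%). Of the 698 lower genes, they lay above both pairs in 269 (38.5%), between them in 200 (28.7%) and below both in 45 (6.45%), and overlapped a pair in 184 (26.4%). Over the 8828 genes whose pairs did not overlap, called or not, shNT lay between the pairs in 914 (10.4%). For the 4313 of these higher with shYEATS2, shNT lay between the pairs in 12.03%, below both in 26.5% and above both in 13.5%. For the 4515 lower ones, it lay above both in 28.99%, between them in 8.75% and below both in 12.07%. The share of called higher genes with shNT below both pairs (25.9%) was thus close to that of all such higher genes. Shares between the pairs were larger among called genes in both directions. KCNA1, SMOC2, FNDC1, OLFM4 and TUBA3C were the coding genes of at least 5 CPM with the largest differences in which shYEATS2 was below and shZZZ3 above the control. MAP2, MMP16, KCNA3, COLEC10 and SLC16A6 were those with shYEATS2 above and shZZZ3 below it.

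Genes were then grouped into 37 lists by role. Together the lists held 755 tested genes, of which 148 (19.6%) were called, against 7.21% of all genes. The share over all genes applies beside the count of each list below. Clustered protocadherins (6.25%), hypoxia and glycolysis (6.67%), TFE3 and lysosomal targets (8.33%), adipocyte (9.09%) and epithelial and leukocyte genes (10%) stood near it. The lists were written around the biology of these lines and with earlier results of the same libraries known, so a higher share is not evidence for any of them. Without a single library the count of listed genes called fell to between 56 and 114, and with the GC trend removed it was 247.

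**Figure D4:**
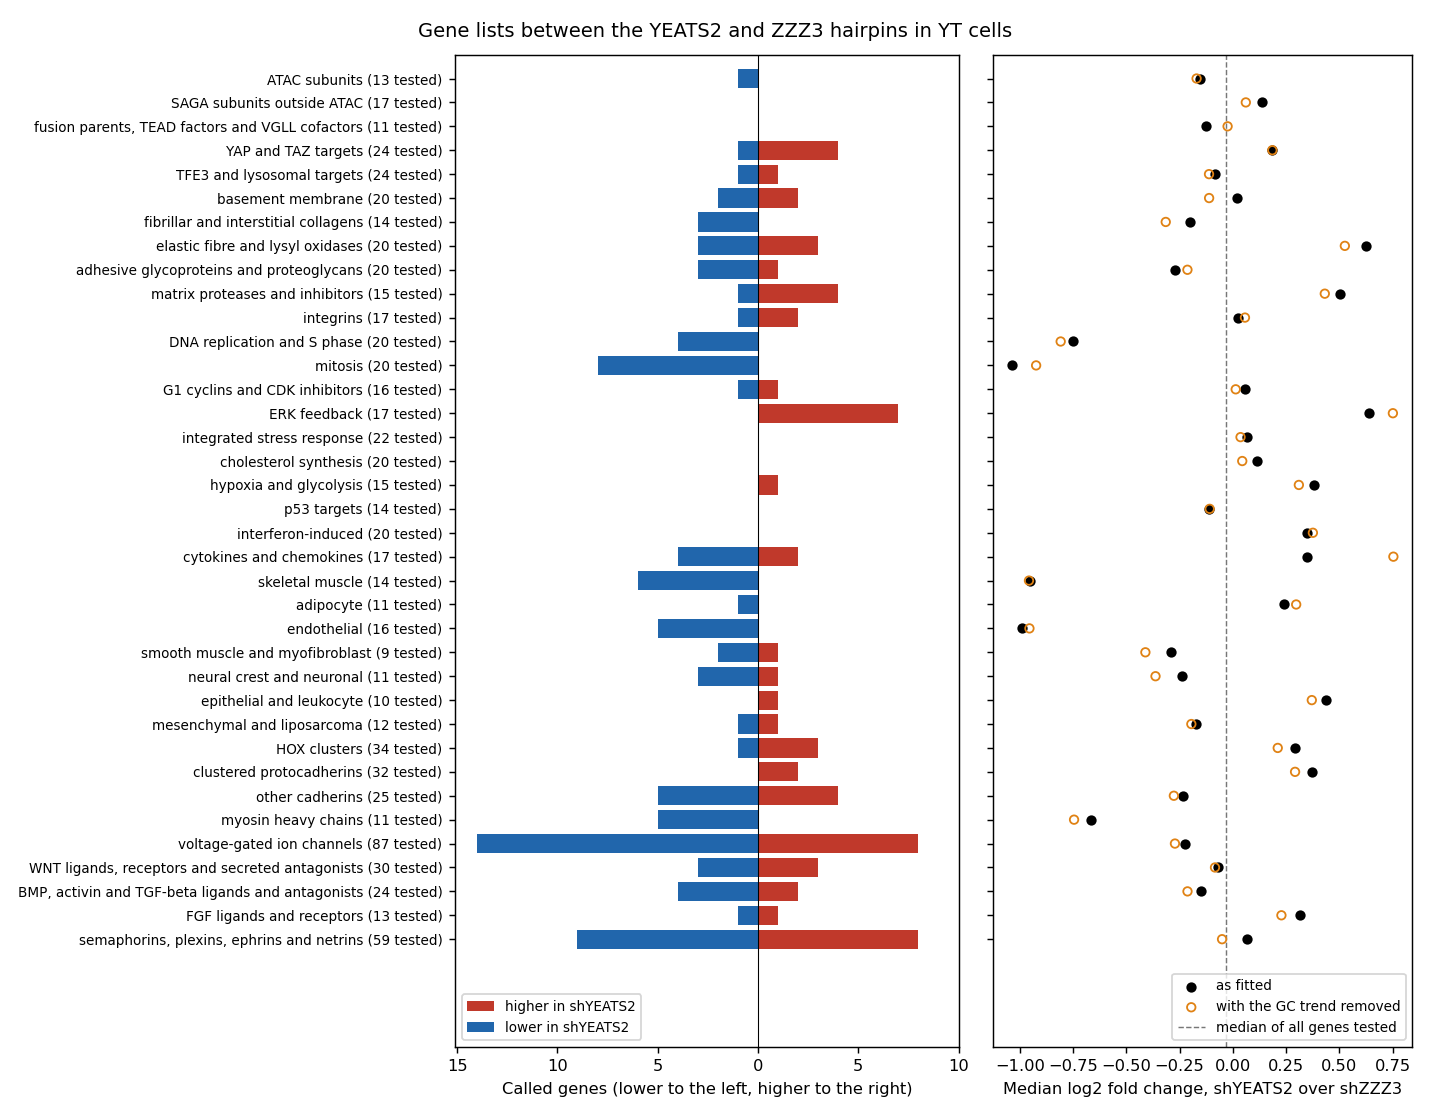
Called genes of each list (left, number lower with shYEATS2 to the left of 0 and higher to the right) and median log2 fold change of shYEATS2 over shZZZ3 over the tested members (right), as fitted (filled) and with the GC trend removed (open). Mitosis, endothelial, skeletal muscle and S phase lists have the lowest medians (−1.04, −0.99, −0.95 and −0.75), and the ERK feedback and elastic fibre lists the highest (0.64 and 0.63).

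Of 40 genes of S phase and mitosis, 12 were called lower with shYEATS2 than with shZZZ3. All 20 genes of DNA replication and S phase and all 20 of mitosis had a log2 fold change below 0, with medians of −0.75 and −1.04 against −0.03 for all genes. Of these, 4 S phase and 8 mitosis genes were called lower and none higher. At an unadjusted p under 0.05, 15 and 17 were lower and none higher, and DESeq2 called 9 and 16 lower. CENPF, a kinetochore protein, was at 26.6 and 23.9 CPM with shYEATS2, 73.9 and 119 with shZZZ3 and 76.1 and 33.1 with shNT (log2 −1.93, SE 0.46, edgeR adjusted p = 0.0261). PLK1, a mitotic kinase, was at 41.6 and 40.7 CPM against 131 and 77.7, with shNT at 32.6 and 23.9 (−1.34, SE 0.32, edgeR adjusted p = 0.0261). MCM4 of the replicative helicase was at 69.1 and 65.3 CPM against 156 and 154, with shNT at 77.4 and 84.7 (−1.21, SE 0.23, edgeR adjusted p = 0.00836). MCM10 (−1.37) and TYMS, the thymidylate synthase (−0.82), were also called, while the lowest value of the S phase list, that of the licensing factor CDT1 (−1.41), did not pass (edgeR adjusted p = 0.0715).

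The sum over the mitosis list was 1081 and 967 CPM with shYEATS2, 2037 and 1959.6 with shZZZ3 and 701 and 526 with shNT. For S phase it was 1289 and 1248 CPM, 2315 and 1928, and 942 and 1056. The shZZZ3 libraries were thus the highest of the 6 in both lists and the shYEATS2 libraries lay between them and the control. These calls were fragile. Without shYEATS2 replicate 1 or without replicate 2 no gene of either list was called, without shZZZ3 replicate 1 there were 2 and 7, and without replicate 2 there were 5 and 4. With the GC trend removed, 13 S phase and 15 mitosis genes were called, all lower. Growth rate was not measured in these files. Among 16 G1 cyclins and CDK inhibitors, CCND1 was at 405 and 381 CPM with shYEATS2 and 232 in both shZZZ3 libraries (0.76, SE 0.18, edgeR adjusted p = 0.0274). CCND2 was at 0 and 0.0516 CPM against 0.437 and 0.677, a ratio of 23.8 (3.93 to 972) that rests on 1 count. CCND1 kept its call in none of the 4 omissions and CCND2 in 1, and with the GC trend removed 3 genes of this list were higher and 1 lower.

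Feedback genes of the ERK pathway are induced by ERK signalling and damp it in turn. Of 17 tested, 7 were called higher with shYEATS2 and none lower (10 and none at an unadjusted p under 0.05, 8 and none with DESeq2), and the median log2 fold change was 0.64. SPRY4, a Sprouty inhibitor of receptor signalling, was at 133 and 156 CPM with shYEATS2, 52.4 and 55.6 with shZZZ3 and 70.3 and 84.4 with shNT (log2 1.42, SE 0.26, edgeR adjusted p = 0.00678). DUSP4, an ERK phosphatase, was at 442 and 407 CPM against 185 and 152, with shNT at 275 and 306 (1.34, SE 0.17, edgeR adjusted p = 0.00106). SPRY2 was at 86.2 and 80.8 CPM against 36.2 and 32.9 (1.27, SE 0.25, edgeR adjusted p = 0.00989). For SPRY4 and DUSP4 the hairpins again lay on opposite sides of the control. The count was 3 without shYEATS2 replicate 1, 2 without replicate 2, 6 without shZZZ3 replicate 1 and 3 without replicate 2, and 10 with the GC trend removed.

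Target genes of the fusions' parents were compared next. Of 24 YAP and TAZ targets, 4 were higher with shYEATS2 and 1 lower (20.8%, against 7.21% of all genes tested). The tissue factor gene F3 was at 18.6 and 16.5 CPM against 6.77 and 8.63 with shZZZ3 (log2 1.18, SE 0.32, edgeR adjusted p = 0.0499), and NT5E, the ecto-nucleotidase CD73, at 35 and 27.6 against 61.1 and 71.4 (−1.08, SE 0.24, edgeR adjusted p = 0.0183). No call in this list was kept in all 4 omissions. Of 24 TFE3 and lysosomal targets, RRAGD, a Rag GTPase of mTORC1 signalling, was lower (−0.90, SE 0.20, edgeR adjusted p = 0.018) and WIPI1, an autophagy protein, higher (0.92, SE 0.20, 0.0187). RRAGD stood at 67.6 and 72.2 CPM with shNT, 14.2 and 13.5 with shYEATS2 and 25.5 and 26.5 with shZZZ3, so both knock-down pairs lay well below the control. RRAGD and WIPI1 each kept the call in 1 of the 4 omissions, and with the GC trend removed 2 genes of this list were called in each direction.

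The extracellular matrix and cell surface genes LAMA1 and GPC4 differed strongly. LAMA1 (chr18:6941742-7117797), the laminin alpha 1 chain of basement membranes, was at 4.08 and 4.18 CPM with shYEATS2, 59.2 and 77.9 with shZZZ3 and 340.0 and 371 with shNT. It was 16.3-fold lower with shYEATS2 than with shZZZ3 (log2 −4.02, SE 0.30, edgeR adjusted p = 5.27e-05). GPC4, a glypican of the cell surface, was at 2.62 and 1.34 CPM against 26.2 and 25.2, with shNT at 80.6 and 80.9, a 12.3-fold difference (−3.62, SE 0.26, edgeR adjusted p = 5.27e-05). FBLN5, an elastic fibre protein, was at 5.04 and 3.87 CPM against 14.7 and 12, with shNT at 55 and 57.7 (−1.56, SE 0.29, edgeR adjusted p = 0.00726). In all 3 genes the order was shNT, then shZZZ3, then shYEATS2, with no overlap. The study had picked these 3 genes and SPP1 from the same knock-down data as genes lowered against the control hairpin. Their place below shNT is therefore no separate result. FBLN5 lost its call without shYEATS2 replicate 1 (edgeR adjusted p = 0.0534) or replicate 2 (0.0976). SPP1 (osteopontin, a secreted phosphoprotein) was at 54.5 and 43 CPM with shYEATS2, 64.9 and 68.8 with shZZZ3 and 418 and 446 with shNT, and the hairpins did not differ by the test (−0.45, SE 0.24, edgeR adjusted p = 0.31).

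Other matrix genes moved both ways. In the basement membrane list 2 of 20 were called lower (LAMA1 and LAMC3, −1.03) and 2 higher (COL4A4, 1.36, and LAMB2, 0.75). Of 14 fibrillar and interstitial collagens 3 were lower and none higher (3 and 1 at an unadjusted p under 0.05, 3 and none with DESeq2). COL6A3 was at 17.8 and 23.8 CPM with shYEATS2 and 86.9 and 122 with shZZZ3 (log2 −2.32, SE 0.24, edgeR adjusted p = 3.28e-04), COL5A3 differed by −2.02 and COL1A1 by −1.34. Among 20 adhesive glycoproteins and proteoglycans, GPC3, the neighbour of GPC4 on the X chromosome, was at 0.874 and 1.29 CPM against 8.81 and 7.49 (−2.83, SE 0.41, edgeR adjusted p = 0.00195). POSTN (periostin) was lower at 9.57 and 8.83 CPM against 27.1 and 42.9 (−1.92, SE 0.39, edgeR adjusted p = 0.013), and THBS1 (thrombospondin-1) higher at 198 and 185 against 73.3 and 102 (1.13, SE 0.30, edgeR adjusted p = 0.0444). Without a single library LAMC3, COL4A4, LAMB2 and THBS1 lost the call in each of the 4 omissions, POSTN kept it in 1 and COL5A3 and COL1A1 in 3. With the GC trend removed LAMB2 was not called (edgeR adjusted p = 0.0880), and of the adhesive glycoproteins and proteoglycans 7 were lower and 3 higher, against 3 and 1 as fitted.

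Elastic fibre genes and lysyl oxidases had a positive median (0.63) with 3 called higher and 3 lower of 20. EFEMP1 (fibulin-3) was at 52.7 and 45 CPM with shYEATS2 against 12.6 and 13.2 with shZZZ3 and 14.5 and 13.5 with shNT (log2 1.91, SE 0.25, edgeR adjusted p = 0.00127), and was called in all 4 omissions. LOX, the cross-linking enzyme (1.21), and LTBP3, which stores latent TGF-beta (1.0), were the other higher genes, and LOXL1, FBLN5 and FBLN1 the lower ones. LOXL1 had 1 count with shYEATS2, a ratio of 29.7 (4.99 to 1207). LOX kept its call in none of the 4 omissions, LTBP3 in 1 and LOXL1 in 3. Of 15 matrix proteases and inhibitors, 4 were higher, among them MMP16, TIMP3 and MMP9 (gelatinase B, at 12.2 and 17.6 CPM against 3.17 and 2.62, edgeR adjusted p = 0.00825, called in 2 of the 4 omissions). ADAMTS2, which trims procollagen, was lower at 0.999 and 1.08 CPM against 21.8 and 14.3, with shNT at 10.7 and 10.8 (−4.01, SE 0.34, edgeR adjusted p = 1.18e-04). Among 17 integrins, ITGA8 was lower (−2.00) and ITGB4 (1.79) and ITGA7 (1.30) higher. ITGB4, the hemidesmosome chain, was at 40.9 and 50.3 CPM against 16.6 and 9.60. ITGA8 was called in all 4 omissions, ITGB4 in 3 and ITGA7 in 2, and with the GC trend removed 4 integrins were higher and 1 lower.

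Secreted signals and their antagonists included large differences. NOG (noggin), which blocks bone morphogenetic proteins, was at 0.291 and 0.258 CPM with shYEATS2, 4.8 and 3.68 with shZZZ3 and 3.38 and 2.76 with shNT (log2 −3.57, SE 0.36, edgeR adjusted p = 2.52e-04). CHRD (chordin), another such antagonist, was at 0.0832 and 0.155 CPM against 1.89 and 1.44 (−3.10, SE 0.40, edgeR adjusted p = 0.00107). The ligand gene BMP7 was at 5.12 and 5.21 CPM against 31.5 and 23.1, with shNT at 68.5 and 68.7 (−2.38, SE 0.23, edgeR adjusted p = 2.07e-04). In the opposite direction, FST (follistatin), an activin antagonist, was at 50.2 and 42 CPM with shYEATS2, 17.8 and 18.7 with shZZZ3 and 3.22 and 2.82 with shNT (1.33, SE 0.31, edgeR adjusted p = 0.0237). Both pairs lay above the control for FST and below it for BMP7. INHBA, the activin A subunit, differed by 1.88. In all, 4 of 24 BMP, activin and TGF-beta genes were lower and 2 higher, and the 4 lower ones were called in all 4 omissions, INHBA in 1 and FST in none.

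Of 30 WNT ligands, receptors and secreted antagonists, 3 were called in each direction. DKK1 (Dickkopf-1), a WNT antagonist, was at 55.5 and 38.5 CPM with shYEATS2, 13.9 and 12.5 with shZZZ3 and 9.29 and 9.03 with shNT (log2 1.83, SE 0.29, edgeR adjusted p = 0.00334). The receptor gene FZD7 was at 97 and 118 CPM against 45.7 and 43.3, with shNT between them at 81.9 and 84.9 (1.27, SE 0.18, edgeR adjusted p = 0.00159). WNT3 was higher (1.07) and SFRP5, WNT7A and WNT2B lower, with each of the latter at or under 2.41 CPM in all 4 libraries. FZD7 was the 1 call of the list kept in all 4 omissions, DKK1 was kept in 3, SFRP5 in 2, WNT7A in 1, and WNT3 and WNT2B in none. In the GC-corrected fit 8 genes of the list were lower and 5 higher. Among 13 FGF ligands and receptors, FGF13 was higher at 5.99 and 4.34 CPM against 0.837 and 0.55 (2.74, SE 0.40, edgeR adjusted p = 0.00214) and FGFR4 lower at 3.66 and 3.41 against 11.2 and 7.66 (−1.39, SE 0.31, edgeR adjusted p = 0.019). FGF13 was called in all 4 omissions and FGFR4 in 1, and with the GC trend removed 4 FGF genes were higher and 1 lower.

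Cytokine genes also split by direction. CXCL14, a chemokine, was at 0.375 and 0.465 CPM with shYEATS2, 9.06 and 5.58 with shZZZ3 and 3.17 and 2.82 with shNT (log2 −3.88, SE 0.34, edgeR adjusted p = 1.21e-04). The membrane-bound chemokine CX3CL1 (fractalkine) was at 2.58 and 2.53 CPM against 16.9 and 11.5, with shNT at 54.8 and 67.7 (−2.44, SE 0.47, edgeR adjusted p = 0.00928), and the alarmin IL33 differed by −2.42. IL6 and LIF, cytokines that signal through gp130, were both higher: IL6 was at 3.75 and 3.30 CPM against 0.509 and 0.804 (2.29, SE 0.37, edgeR adjusted p = 0.00347) and LIF at 13.4 and 16.6 against 5.17 and 5.37 (1.5, SE 0.22, edgeR adjusted p = 0.00175). For both, the shNT libraries lay between the pairs. Of 17 tested, 4 were lower and 2 higher, and 5 of these 6 were called in all 4 omissions, with CX3CL1 called in 2.

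Axon guidance molecules, which steer growth cones and also act in vessels and tumours, gave 9 lower and 8 higher calls among 59 semaphorin, plexin, ephrin, netrin and related genes. EFNA5, a membrane-anchored ephrin ligand, was at 19.8 and 18.5 CPM with shYEATS2, 1.46 and 1.78 with shZZZ3 and 0.528 and 0.403 with shNT (log2 3.50, SE 0.30, edgeR adjusted p = 1.17e-04). UNC5C, a netrin receptor, was at 14.1 and 13.6 CPM against 0.728 and 1.31 (3.66, SE 0.49, edgeR adjusted p = 0.00125), and SEMA3A, a secreted semaphorin, at 35.2 and 32.9 against 3.49 and 7.23 (2.65, SE 0.41, edgeR adjusted p = 0.00268). In these 3 genes shNT lay below both pairs. SLIT3, a secreted guidance ligand, was at 0.749 and 0.929 CPM with shYEATS2, 9.02 and 5.84 with shZZZ3 and 56.3 and 63.3 with shNT (−3.03, SE 0.48, edgeR adjusted p = 0.00313). PLXNA4, a semaphorin receptor, was at 2.91 and 3.30 CPM against 22.5 and 29.5, with shNT at 2.22 and 2.65 (−3.03, SE 0.59, edgeR adjusted p = 0.00954). SEMA5B was lower by −3.25. SLIT3 thus lay below the control with both hairpins, while PLXNA4 lay above it with both, by far more with shZZZ3. SLIT3 was called in 3 of the 4 omissions, PLXNA4 and SEMA5B in 2, and EFNA5, UNC5C and SEMA3A in all 4.

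Of 87 genes of voltage-gated ion channels, 14 were lower and 8 higher, with a median of −0.22 (−0.20 with genes at 0 counts set at their bound). Beside KCNA1, the calcium channel subunit CACNG4 was at 0.458 and 0.619 CPM with shYEATS2 and 7.35 and 4.57 with shZZZ3 (log2 −3.28, SE 0.34, edgeR adjusted p = 3.07e-04), and KCNIP1, a potassium channel partner, differed by −2.90. Beside KCNA3, the sodium channel gene SCN9A was at 3.04 and 2.48 CPM against 0.0728 and 0, a ratio of 71.3 (19.3 to 595), and SCN2B differed by 2.23. In all 4 omissions 7 of the 22 calls were kept, and SCN2B kept its call in 1. In the GC-corrected fit 22 channel genes were lower and 15 higher. The related channel genes KCNA1 and KCNA3 thus differed in opposite directions.

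Markers of other lineages were also compared. All 16 endothelial genes had a log2 fold change below 0, with a median of −0.99, and 5 were called lower and none higher (6 and none at an unadjusted p under 0.05, 6 and none with DESeq2). CDH5 (VE-cadherin), the adhesion molecule of endothelial junctions, was at 10.8 and 12.5 CPM with shYEATS2, 87.1 and 79.3 with shZZZ3 and 21.6 and 21.9 with shNT (log2 −2.83, SE 0.42, edgeR adjusted p = 0.00232). ERG, an endothelial ETS factor, was at 0.708 and 1.03 CPM against 6.48 and 7.74, with shNT at 8.98 and 10 (−2.92, SE 0.47, edgeR adjusted p = 0.00347), and FLT4, the VEGF receptor of lymphatic vessels, differed by −2.52. The list summed to 228 and 245 CPM with shYEATS2, 509 and 439 with shZZZ3 and 317 and 307 with shNT. CDH5 was thus above the control with shZZZ3 and below it with shYEATS2, while VWF stayed between 1.95 and 3.17 CPM in the 6 YT libraries. No endothelial call was kept in all 4 omissions: none remained without shYEATS2 replicate 1, and 3 were made in each of the other 3 fits.

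Among 14 skeletal muscle genes, 6 were lower and none higher (7 and none at an unadjusted p under 0.05, 6 and none with DESeq2), with a median of −0.95, and 5 of the 6 were the myosins described above. Of 9 smooth muscle and myofibroblast genes, LMOD1 (leiomodin-1, −2.82) and CNN1 (calponin, −1.34) were lower and MYLK (myosin light chain kinase, 1.09) higher. Of 11 neural crest and neuronal genes, 3 were lower, among them the neurofilament gene NEFL (−3.64) and NGFR, and MAP2 was higher. Of 11 adipocyte genes, CEBPA, a master factor of fat cells, was the 1 called, at 0.208 and 0.258 CPM against 1.60 and 0.804 (−2.02, SE 0.48, edgeR adjusted p = 0.0253). Of 12 mesenchymal and liposarcoma genes, CD44, a hyaluronan receptor, was higher at 1003 and 868 CPM against 491 and 397, with shNT at 329.8 and 365 (1.07, SE 0.18, edgeR adjusted p = 0.00442), and NT5E, described among the YAP targets, lower. Of 10 epithelial and leukocyte genes, CDH1 was the 1 called. In the 4 omissions LMOD1, NEFL and MAP2 were called in all 4, CD44 in 3, NGFR in 2, and CNN1, MYLK, CEBPA and NT5E in 1. With the GC trend removed 2 smooth muscle genes were higher and 3 lower, 2 adipocyte genes higher and 1 lower, and 3 epithelial and leukocyte genes higher and none lower.

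Adhesion and positional genes were called in both directions. The share called was 36% of cadherins outside the protocadherin clusters, 6.25% of clustered protocadherins and 11.8% of HOX genes, against 7.21% of all genes tested. The clustered protocadherins thus did not exceed the share over all genes. CDH2 (N-cadherin) was at 70.3 and 72.5 CPM with shYEATS2, 17.8 and 19 with shZZZ3 and 8.08 and 9.72 with shNT (log2 1.95, SE 0.20, edgeR adjusted p = 2.25e-04). Of 25 cadherins outside the protocadherin clusters, 4 were higher, including DCHS2 (1.95) and CDH1 (2.05, at or under 0.624 CPM), and 5 lower, including PCDH8 (−3.29), CDH5 and CDH12 (−2.58). Of 32 clustered protocadherins, PCDHGA4 (1.60) and PCDHGA7 (1.12) were higher and none lower (7 and 4 at an unadjusted p under 0.05, 3 and none with DESeq2), and their shared exons make single members uncertain. HOX genes, which encode position along the body axis, had a log2 fold change above 0 in 32 of 34 tested, with a median of 0.29. Of these, HOXC12 (1.82), HOXC10 (1.21) and HOXA5 (0.96) were called higher and HOXD13 (−1.26) lower. No HOX or clustered protocadherin call was kept in all 4 omissions, CDH1 was called in none and DCHS2 in 1. After removal of the GC trend 6 HOX genes were higher and 1 lower, and 3 clustered protocadherins higher and 1 lower.

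Several programmes held few calls or none, and with 7.21% of all genes tested called, lists this short would hold few. None of 22 genes of the integrated stress response, 20 of cholesterol synthesis, 14 p53 targets or 20 interferon-induced genes was called with edgeR. At an unadjusted p under 0.05 they held 0, 3, 2 and 3 genes, and DESeq2 called 0, 0, 0 and 1. They held 0, 1, 1 and 2 calls with the GC trend removed. Their medians were 0.07, 0.11, −0.11 and 0.35. Among 15 hypoxia and glycolysis genes, the enolase gene ENO2 alone was called, at 37.3 and 46.6 CPM against 18.7 and 16.4 (log2 1.25, SE 0.22, edgeR adjusted p = 0.00547), in 3 of the 4 omissions. After GC correction 2 genes of that list were higher and 1 lower. Of the YAP target list, IGFBP3 (0.85) and CCDC80 (0.68) were among the higher genes, and neither kept its call when any library was left out.

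Hairpins against the same genes were compared in TC cells, which share no library with the YT comparison, to ask whether the differences recur there. The labels do not say whether both lines carried the same hairpins, and the lines are separate pools. Hairpin sequence and pool therefore cannot be told apart from the fusion. The study's RNA-seq methods collected lines containing CAMTA1 below confluence and other lines at confluence. Whether this held for the hairpin libraries is not stated. In TC cells 221 genes (1.2%) were called, 114 higher (0.619%) and 107 lower (0.581%) with shYEATS2. The robust spread of log2 fold changes over the 13258 genes that averaged 50 counts or more was 0.259 against 0.415 in YT cells. The TC shYEATS2 libraries differed from each other (root mean square log2 difference 0.481) by more than the TC shZZZ3 libraries (0.198), and without TC shZZZ3 replicate 1 or replicate 2 the count of called genes was 31 or 29. Across 13258 genes the log2 fold changes of the lines had a Pearson's r of 0.17 and a Spearman's rho of 0.12, as a description, since genes are not independent replicates. The lines shared 95 calls, 7.16% of those in YT and 43.0% of those in TC, of which 64 had the same direction and 31 the opposite one. KCNA1 and FNDC1 were far lower with shYEATS2 in both lines: in TC cells KCNA1 was at 0.141 and 0.352 CPM against 14.4 and 14.9 with shZZZ3, and FNDC1 at 2.57 and 1.10 against 35 and 43.1. YEATS2 itself differed by −1.69 in TC cells, and its difference between the lines did not pass the test (−0.21, SE 0.25, edgeR adjusted p = 0.781).

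**Figure D5:**
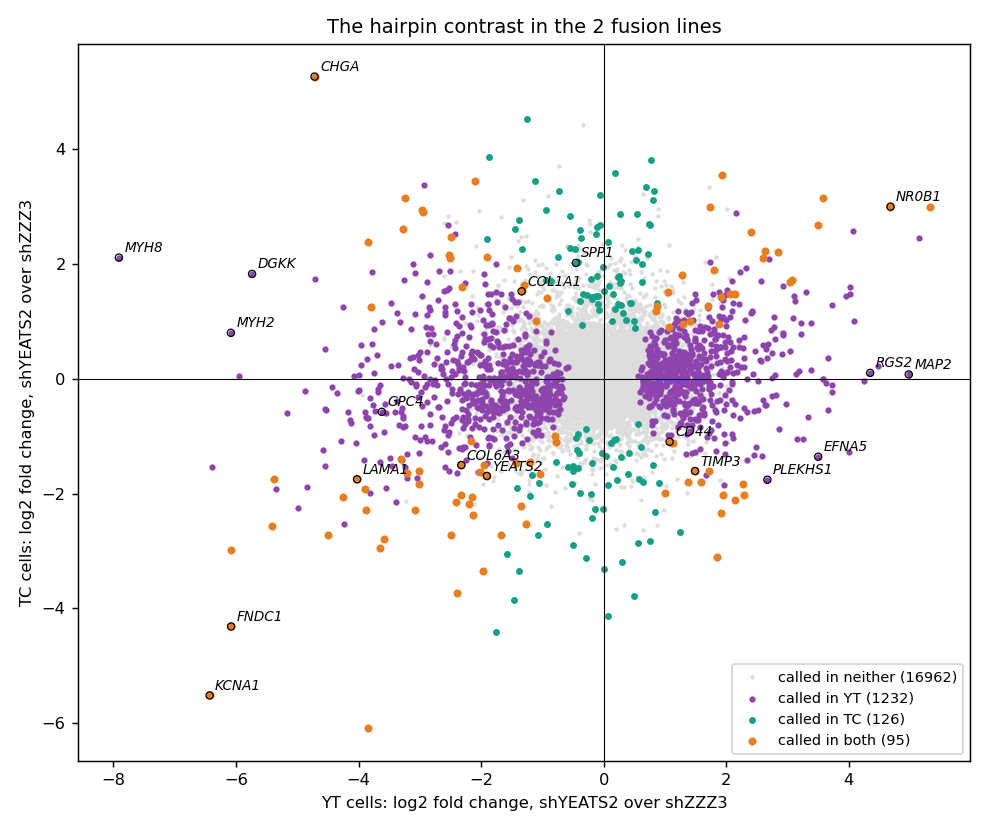
Log2 fold change of shYEATS2 over shZZZ3 in TC cells (vertical) against that in YT cells (horizontal), one point per gene tested, with genes called in YT alone in purple, in TC alone in green and in both in orange. Of the 95 orange genes called in both lines, 64 lie in the quadrants of equal sign and 31 in the opposite ones, and Pearson's r over 13258 genes is 0.17.

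The difference between the lines was tested as an interaction (the YT log2 fold change minus that in TC). It was called for 571 genes (3.1%), 230 of them higher (1.25%) and 341 lower (1.85%) in YT, and 419 of the 1327 genes called in YT (31.6%) were among them. The lowest interactions among coding genes of at least 5 CPM were those of MYH8, CHGA, DGKK and MYH2. MYH8 was at 6.73 and 0.854 CPM with shYEATS2 and 0.731 and 0.962 with shZZZ3 in TC cells, an interaction of −10.02 (SE 1.10, edgeR adjusted p = 0.00126), and that of MYH2 was −6.88 (SE 0.79, edgeR adjusted p = 0.00166). CHGA (chromogranin A, of secretory granules) was at 0.791 and 0.671 CPM with shYEATS2 and 24.3 and 18.9 with shZZZ3 in YT cells, and at 27.8 and 3.47 against 0.284 and 0.374 in TC cells. Its interaction was −9.97 (SE 1.10, edgeR adjusted p = 0.00131), with the opposite direction called in each line. In YT cells CHGA lost its call without either shYEATS2 library (edgeR adjusted p = 0.0654 and 0.0657). DGKK had an interaction of −7.56 (SE 1.12, edgeR adjusted p = 0.0054) and was at or under 1.26 CPM in all TC libraries with shYEATS2 or shZZZ3. For MYH8, CHGA and DGKK the TC shYEATS2 libraries differed severalfold from each other, and all fitted values near 0 counts depend on the prior count.

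The highest interactions were those of MAP2 (4.91, SE 0.96, edgeR adjusted p = 0.0185), EFNA5 (4.86, SE 0.46, edgeR adjusted p = 6.76e-04), PLEKHS1 (4.43, SE 0.70, edgeR adjusted p = 0.00738) and RGS2 (4.25, SE 0.53, edgeR adjusted p = 0.00228). EFNA5 was at 0.317 and 0.452 CPM with shYEATS2 and 1.38 and 0.802 with shZZZ3 in TC cells, the reverse order to YT cells, though not called there (edgeR adjusted p = 0.0879). RGS2 was at 6.48 and 12.3 CPM against 7.43 and 10 in TC cells, where its pairs overlapped. PLEKHS1, a pleckstrin-homology domain protein, was at 5.66 and 4.54 CPM against 1.09 and 0.338 in YT cells (log2 2.67, edgeR adjusted p = 0.00727, lost without shYEATS2 replicate 1 at 0.0736). Of the matrix genes, LAMA1 was lower with shYEATS2 than with shZZZ3 in both lines but by less in TC (−1.75). Its interaction was −2.27 (SE 0.38, edgeR adjusted p = 0.00859). In TC cells LAMA1 was at 28.1 and 16.9 CPM with shYEATS2, 62.8 and 89.6 with shZZZ3 and 9.73 and 11.6 with shNT. GPC4 was at 59.5 and 62.1 CPM against 85.9 and 95.8 in TC cells, with shNT at 36.5 and 36.1. The interaction of GPC4 was −3.04 (SE 0.33, edgeR adjusted p = 0.00126). For LAMA1 and GPC4 both hairpins thus lay above the control in TC cells and below it in YT cells. SPP1 was higher with shYEATS2 in TC cells, at 112 and 191 CPM against 39.7 and 35.2 (2.01, edgeR adjusted p = 0.00307), and its interaction was −2.47 (SE 0.34, edgeR adjusted p = 0.00355). TIMP3, CD44 and COL1A1 were called in opposite directions in the lines: TIMP3 was at 287 and 302 CPM with shYEATS2 against 894 and 902 with shZZZ3 in TC cells, an interaction of 3.10 (SE 0.26, edgeR adjusted p = 6.05e-04).

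By chromosome, the median log2 fold change was lowest on chromosome 8 (−0.31, and −0.27 with the GC trend removed) and chromosome 13 (−0.25 and −0.14), and highest on chromosome 20 (0.12). The order of the other chromosomes depended on the GC correction: with it chromosome 16 (−0.20, and −0.14 as fitted) was lower than chromosome 13, and chromosome 14 (0.13) higher than chromosome 20 (0.10). The 637 genes tested on chromosome 8 included 37 called lower and 24 called higher. Copy number was not measured, and its part in these medians was not tested. In RefSeq promoters (250 bases before to 50 after the start, GRCh38), matched for 12653 of the tested genes, the TEAD core CATTCC or its reverse complement stood in 12.4% of the 435 promoters of higher genes, 13.1% of the 475 of lower genes and 11.2% of those of all genes tested, against 14% of all 27305 promoters. The E-box CACGTG, a palindrome that TFE3 binds, stood in 7.59%, 10.3% and 9.86%, against 7.43% of all promoters. The longer palindrome TCACGTGA, which contains it, stood in 0.92% (4 promoters), 0.42% (2 promoters) and 1.72%, against 1.04% of all promoters. Letter matches in a short window describe sequence only.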

How the data were processed

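RNA was measured in 12 libraries of SW872 cells in 6 groups of 2, assigned from the titles. According to the methods of the study, the authors made stranded poly(A) libraries, sequenced paired ends and aligned them with HISAT2 to hg38 within bcbio-nextgen. The deposited values were raw gene counts as whole numbers, made by the authors without normalization. The authors also ran Salmon with tximport, and which route gave the deposited counts is not given in the sources used here. The tables list 58735 Ensembl IDs, of which 99.1% were found in GENCODE release 44 (GRCh38), the source of the symbols and positions.

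Counts were normalised by TMM, and 18415 genes with a mean count of 5 or more over the 12 libraries were tested. A quasi-likelihood model of all 6 groups was fitted in edgeR (version 4.0.16, R version 4.3.3, prior count 2), with 6 residual degrees of freedom and a biological coefficient of variation of 0.205. The contrasts were shYEATS2 against shZZZ3 in YT, the same in TC, and their difference. Tests were two-sided, and a gene is called at a Benjamini-Hochberg adjusted p under 0.05. On simulated data of the YT contrast, run on 18415 genes, 195 of 200 genes changed 4-fold were called with 16 false calls. For the interaction 137 were called with 9 false calls. The simulated counts held no GC trend and no uneven shZZZ3 pair, and genes of low counts were not changed. These rates therefore need not hold in the real libraries. Fold changes against pairs with 0 counts are bounds against 3 counts per library, and ratios on 1 to 3 counts carry exact 95% binomial intervals of counting error only.

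The gene lists and the genes named were chosen with earlier results of these data known. Named were the targets, the fusion parents, LAMA1, FBLN5, SPP1 and GPC4. To these were added the 10 highest and 10 lowest called coding genes of at least 5 CPM, the 5 in each direction with the largest differences around shNT, the 5 most abundant at 2-fold or more, the 4 strongest interactions each way, and up to 3 called members of each list per direction. Alternatives were DESeq2 (version 1.42.0), its size factors, library totals, other filters, fewer libraries, a replicate block, GC corrections and leaving out each library. A GC correction with window medians over 51 neighbouring genes was planned for the YT contrast. Its use on the other contrasts, lists and named genes, a GC correction within the 6 YT libraries, and for lists the fits with fewer libraries or with the GC correction and block together were added after seeing the data. Reads across fusion junctions and the study's other assays were not analysed.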

Additional observations from a re-analysis of the deposited data

Results flagged for a closer look

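The following genes are listed because the difference between the YEATS2 and ZZZ3 hairpins in YT cells was itself different from that in TC cells, by edgeR's interaction test with Benjamini-Hochberg adjustment. All values are the log2 fold change in YT minus that in TC. Among genes of muscle, matrix and secretion the interaction was −10.02 for MYH8, −6.88 for MYH2, −9.97 for CHGA, −2.27 for LAMA1, −2.47 for SPP1, −3.04 for GPC4, −4.85 for SMOC2 and −5.99 for OLFM4. It was −7.56 for the kinase gene DGKK, −3.62 for the doppel gene PRND and −4.58 for the tubulin gene TUBA3C.

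In the other direction the interaction was 4.91 for MAP2, 4.86 for EFNA5, 4.43 for PLEKHS1, 4.25 for RGS2, 3.85 for the transporter gene SLC16A6 and 3.96 for PXDNL. SPP1 was called in TC cells and not in YT cells, and CHGA was called in both with opposite directions. SMOC2 was at 0.493 and 0.0502 CPM with shYEATS2 and 1.06 and 1.02 with shZZZ3 in TC cells, and OLFM4 was at or under 0.176 CPM in those 4 libraries. TUBA3C was at 14.3 and 3.21 CPM with shYEATS2 in TC cells, which shows how far the TC shYEATS2 libraries stood from each other. The part of that unevenness in the interactions was not tested.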

How the results depend on the processing

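The number of calls depended on the processing. None of the 121 named genes called changed direction in an alternative in which it was tested, which pairs that do not overlap make likely beforehand. YAP1, named but not called, had a log2 fold change of −0.16 as fitted. It was 0.14 without YT shZZZ3 replicate 2 and 0.10 with the GC correction and window medians. In YT cells 1327 genes were called. The count was 2322 with no filter on low counts, 2962 with a GC correction, 2697 with its window medians added, 3591 with it in the 6 YT libraries alone, and 363 to 1178 when a library was left out. For the TC contrast 221 genes became 751 with no filter, 42 in its own 4 libraries, 662 with the GC correction, 658 with window medians, 492 with DESeq2, and 29 to 400 without a library (400 without TC shYEATS2 replicate 1, 31 and 29 without TC shZZZ3 replicate 1 and 2). The 571 interactions became 1267 with no filter, 363 at a mean of 50 counts or more, 1363 with the GC correction, 1205 with window medians, 907 with DESeq2, and 112 to 653 without a library (112 and 169 without YT shYEATS2 replicate 1 and 2, 168 and 146 without TC shZZZ3 replicate 1 and 2). Of the listed genes 148 were called, and 223 with no filter, 247 with the GC correction, 224 with window medians, 310 with it in the 6 YT libraries, and 56 to 114 without a library. Leaving out a library leaves its group with 1 sample, assumed to vary like the others.

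The replicate numbers did not pair the groups of the YT contrast: deviations of same-numbered libraries correlated at 0.03 between YT shYEATS2 and YT shZZZ3. Between other groups the correlation ran from −0.44 to 0.90, the highest being that of TC shNT with YT shZZZ3. Same-numbered libraries thus deviated together in some of the other groups. With a replicate block the counts were 1654 in YT, 331 in TC, 747 for the interaction and 189 listed genes. With the GC correction and the replicate block together they were 3635, 924, 1696 and 283.

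With 2 libraries per group and about 5 prior degrees of freedom, small differences of low transcripts were not detectable at this depth. Of the 121 named genes called, 64 lost the call without YT shYEATS2 replicate 1, 58 without its replicate 2, 26 without YT shZZZ3 replicate 1 and 37 without its replicate 2.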

Other observations

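Of the called genes, 47 of those higher and 64 of those lower with shYEATS2 in YT cells were annotated as long non-coding RNAs. H19 was chosen from them after its values were seen. H19 (chr11:1995166-2004552, minus strand) is an imprinted long non-coding RNA of fetal tissue. It was at 1.25 and 1.19 CPM with shYEATS2, 106 and 71.7 with shZZZ3 and 12.5 and 12.8 with shNT in YT cells (log2 −6.09, SE 0.42, edgeR adjusted p = 5.27e-05). In TC cells it was at 28.4 and 11.8 CPM with shYEATS2, 168 and 152 with shZZZ3 and 31.5 and 28.1 with shNT (log2 −2.99, edgeR adjusted p = 0.0025). H19 thus stood above the control with shZZZ3 in both lines and below it with shYEATS2 in YT cells.

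TMEM132C, a membrane protein gene likewise chosen after its values were seen, had 0 counts with shYEATS2 in YT cells, 4.37 and 3.05 CPM with shZZZ3 and 6.28 and 5.52 with shNT. Its pairs did not overlap in TC cells either, where it was at 0.317 and 0.0502 CPM with shYEATS2 and 1.62 and 1.60 with shZZZ3.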
